A study of Mus musculus with 10 samples.

Results

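Microglia are the resident macrophages of the brain. A set of 35 microglia and myeloid genes was followed in the hippocampus of mice that carry an extra copy of 1 of them, Samsn1. The genes were taken from a list of the cell type's known receptors, transcription factors, complement and lysosomal genes, and all 35 were measured among the 19939 genes of the array. Samsn1 lies inside the duplicated interval and was kept apart from the other 34, which have 2 copies in every mouse. Total RNA came from the whole hippocampus, both sides, of 16-week-old males, 5 Dp3Yah mice and 5 littermate controls, with 1 Mouse Gene ST array per mouse and each mouse labelled a biological replicate. Dp3Yah mice carry 3 copies, against 2 in controls, of the mouse chromosome 16 genes from Hspa13 to Gabpa, which correspond to part of human chromosome 21. The duplication is present in every cell of the animal, so it marks no particular cell type. The labels give the C57BL/6N background for both groups, while the methods of the study name C57BL/6J, and no other allele or treatment was named. The tissue was not sorted, so for all genes below a different number of cells of a type and a different amount of RNA per cell cannot be told apart.

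Microglia survey the tissue through G protein-coupled receptors for nucleotides and chemokines, depend on signals through CSF1R to survive, and clear material by complement tagging, phagocytosis and lysosomal digestion. Their identity rests on transcription factors such as PU.1, IRF8 and SALL1, and many of their genes carry a PU.1 site near the start. SAMSN1 is an adaptor protein with an SH3 and a SAM domain, expressed mainly in haematopoietic cells, where it is known as a negative regulator of B-cell activation.

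All values are log2 expression levels as deposited, and a change is the Dp3Yah mean minus the control mean. The median level of an array was 5.64 to 5.71, and the median level of a gene over all arrays was 6.38. Of the 35 genes 30 lay above that median. Samsn1, Gpr34, Itgb2, Cd14 and Ptprc lay below it. Each gene was read by 1 probe set of its own. Itgam also had 3 probe sets shared with other genes, which were not used. The markers Cx3cr1, Csf1r and Ctss, which define the cells, were all above the median level in all 10 mice. Dp3Yah mouse 2 stood apart on the first principal component of all genes (-17.2, where the other 9 arrays lay between -7.7 and 10.4), so counts are also given without it.

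Samsn1, Ctss and Cd53 share the PU.1-type motif GAGGAAGT, which Itgam and Cx3cr1 do not hold in full. The promoters of Samsn1 and of these 4 genes, which come up below, are therefore shown first. Each is the RefSeq sequence of GRCm38.p6 from 250 bases before to 50 after the annotated start, read in the direction of the gene, with GAGGAAGT or its reverse complement ACTTCCTC in capitals. They lie at chr16:75909217-75909516 (minus strand, Samsn1), chr3:95526536-95526835 (plus strand, Ctss), chr3:106790100-106790399 (minus strand, Cd53), chr7:128062390-128062689 (plus strand, Itgam) and chr9:120068247-120068546 (minus strand, Cx3cr1).
Samsn1: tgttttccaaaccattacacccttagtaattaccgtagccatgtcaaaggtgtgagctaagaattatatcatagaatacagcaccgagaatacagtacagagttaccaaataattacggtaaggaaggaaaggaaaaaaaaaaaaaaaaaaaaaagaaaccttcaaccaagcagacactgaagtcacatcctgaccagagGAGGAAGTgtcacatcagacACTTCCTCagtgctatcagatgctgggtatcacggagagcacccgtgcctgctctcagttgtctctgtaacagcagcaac
Ctss: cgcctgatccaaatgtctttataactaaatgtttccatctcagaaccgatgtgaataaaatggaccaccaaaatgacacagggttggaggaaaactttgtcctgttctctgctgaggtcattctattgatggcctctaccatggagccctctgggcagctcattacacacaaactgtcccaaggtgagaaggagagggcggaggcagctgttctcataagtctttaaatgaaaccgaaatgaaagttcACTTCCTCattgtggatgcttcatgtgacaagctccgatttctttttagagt
Cd53: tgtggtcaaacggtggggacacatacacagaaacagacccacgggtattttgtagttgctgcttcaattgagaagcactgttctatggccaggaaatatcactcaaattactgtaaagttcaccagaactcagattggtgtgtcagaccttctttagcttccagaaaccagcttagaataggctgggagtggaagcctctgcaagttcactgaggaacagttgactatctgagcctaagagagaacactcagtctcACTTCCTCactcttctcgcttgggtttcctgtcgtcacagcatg
Itgam: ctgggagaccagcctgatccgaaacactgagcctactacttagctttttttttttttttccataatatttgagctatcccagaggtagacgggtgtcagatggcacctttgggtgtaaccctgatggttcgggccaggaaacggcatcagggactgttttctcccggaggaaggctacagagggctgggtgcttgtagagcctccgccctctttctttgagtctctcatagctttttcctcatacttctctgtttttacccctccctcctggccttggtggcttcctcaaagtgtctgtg
Cx3cr1: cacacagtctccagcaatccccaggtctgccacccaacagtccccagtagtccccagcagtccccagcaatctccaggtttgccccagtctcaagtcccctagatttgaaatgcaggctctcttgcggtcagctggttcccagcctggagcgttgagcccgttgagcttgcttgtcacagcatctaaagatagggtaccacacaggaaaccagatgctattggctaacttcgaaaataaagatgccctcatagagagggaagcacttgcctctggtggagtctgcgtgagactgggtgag

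The Samsn1 promoter held the motif 2 times, 50 bases before the start in the direction of the gene and 30 bases before it on the opposite strand. In Ctss the match began 2 bases before the start and in Cd53 6 bases after it, on the opposite strand in both. RefSeq promoters were at hand for 27 of the 35 genes. Searched on both strands, GAGGAAGT was found in 5 of the 27 (Samsn1, C1qc, Inpp5d, Ctss and Cd53) and in 3.24% of the 15614 measured genes with a promoter entry. The shorter core GGAAGT, which the longer motif contains, was found in 15 of the 27 and in 27.9% of the measured genes. GAGGAA, another part of the longer motif, was found in 17 of the 27, with Itgam but not Cx3cr1 among them, and in 30.2% of the measured genes. AGGAAGT was found in 11 of the 27, with neither Itgam nor Cx3cr1 among them, and in 10% of the measured genes. These matches describe letters in a window and are not binding sites. There was no entry for Gpr34, Csf1r, Tmem119, Selplg, C1qa, Itgb2, Tyrobp and Cd14.

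Samsn1 was higher on average in Dp3Yah mice, with a measured fold of 1.15. It spans 75858794 to 75909266 on chromosome 16 (GRCm38.p6), between Hspa13 and Nrip1. Its level was 6.13, 5.98, 5.85, 5.90 and 6.15 in Dp3Yah mice 1 to 5 and 5.61, 5.81, 5.88, 5.87 and 5.84 in control mice 1 to 5. Dp3Yah mice 1, 2, 4 and 5 lay above every control, and Dp3Yah mouse 3 lay below controls 3 and 4, so the groups overlapped. The means were 6.00 ± 0.13 in Dp3Yah and 5.80 ± 0.11 in control mice (SD, n = 5 each). The change was 0.20 (SE 0.069, 95% interval 0.05 to 0.35), or 1.15-fold (95% interval 1.03 to 1.27), and the exact two-sided permutation test over all assignments of the mice to groups gave p = 0.0238, where 0.00794 is the smallest it can give. Over all genes limma gave an adjusted p of 0.922, and this ranged from 0.718 to 0.999 over the alternatives. A 1.5-fold ratio, as the 3 copies against 2 would set for an RNA in proportion to its gene, is 0.58 on the log2 scale and lay above the interval. The probe set was below the median level of genes and detection calls were not used. The part of background in the measured fold was therefore not tested, and that fold may differ from the change of the RNA.

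The neighbours of Samsn1 in the interval set a frame for this value. Of 17 interval genes measured, 16 had a change above 0, and Samsn1 was number 12 by size. The 9 that lay above the median level changed by 0.28 to 0.60, with 0.60 for Hspa13 and 0.38 for Nrip1, the genes on either side of it. The 8 at or below the median level, Samsn1 among them, had changes of -0.01 to 0.24. With any 1 mouse left out the Samsn1 change stayed between 0.15 and 0.24, and it was 0.15 without control mouse 1, whose level of 5.61 was the lowest of the 10. Of the related SAM and SH3 adaptors, which have 2 copies, Sash3 differed by 0.02 (SE 0.04) and Sash1 by less than 0.01 (95% interval -0.14 to 0.14).

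**Figure D1:**
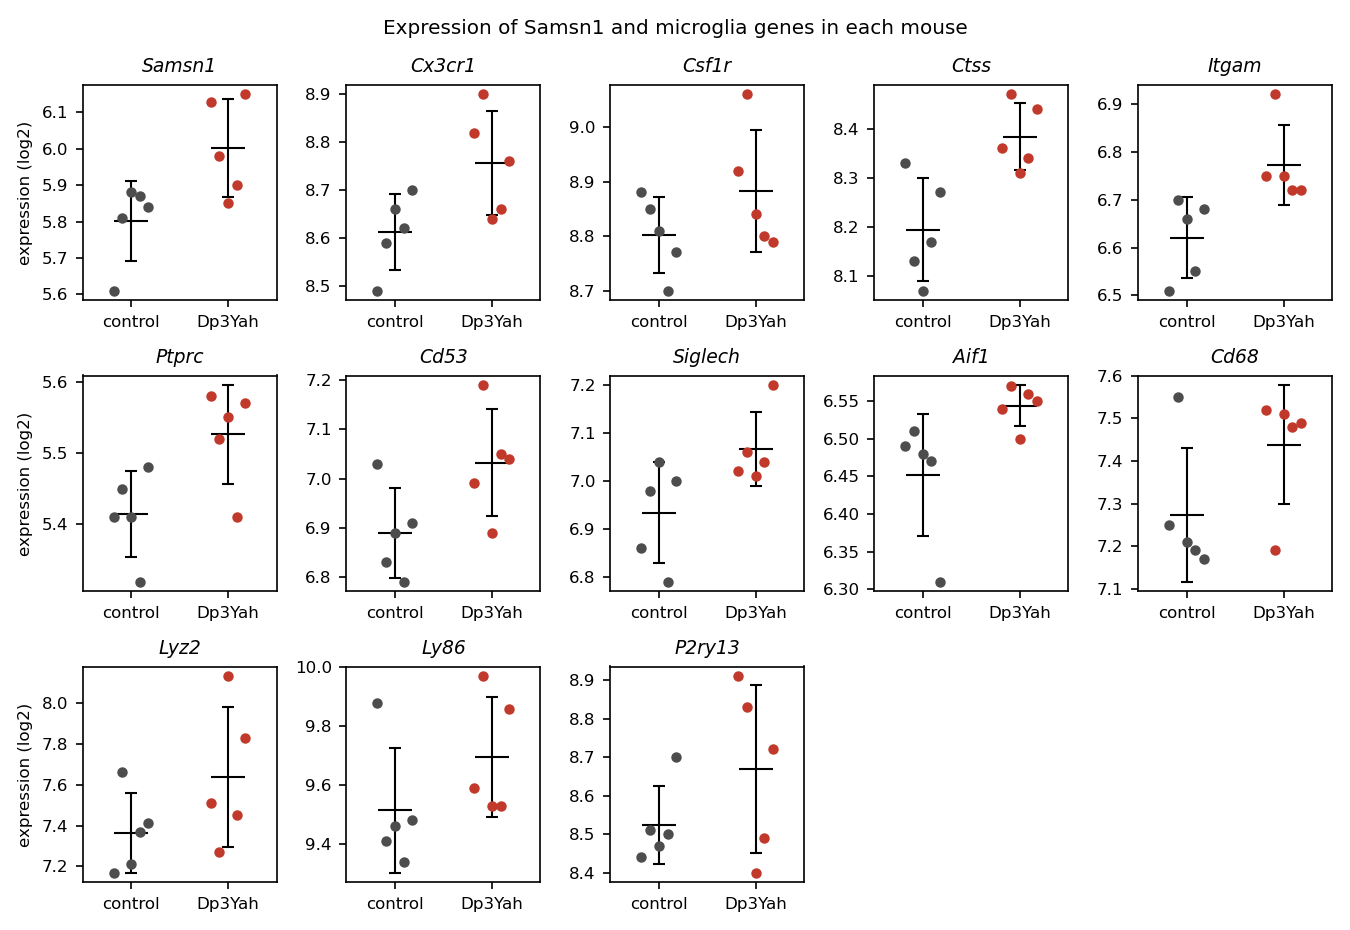
Expression (log2, vertical axis, a scale of its own for each gene) of Samsn1 and 12 microglia genes in 5 control and 5 Dp3Yah mice; points are mice, horizontal lines the group means and bars the SD. Itgam is the gene whose groups do not overlap on the deposited values, and in Samsn1 4 of 5 Dp3Yah mice lie above every control.

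The 34 genes with 2 copies leaned to slightly higher values in Dp3Yah mice, without any of them passing the test over all genes. The log2 change was above 0 in 29 of 34, which is 85.3%, where 46.8% of all genes and 53.1% of the genes above the median level had a change above 0. The 34 genes share mice and tended to move together by mouse, so their changes are not independent. The median change was 0.06, against -0.005 for all genes, and single genes ranged from -0.03 to 0.28. After Benjamini-Hochberg adjustment over all genes limma called 0 of the 35, where 0.0150% of all genes were called, and the lowest adjusted p of a member was 0.922. The genes called were 3, Hspa13, Ncam2 and Mrpl39, and all of them lie in the duplicated interval. At an unadjusted limma p under 0.05, 6 of the 34 were higher (Ctss, Itgam, Cx3cr1, Cd53, Ptprc and Siglech), where 2.49% of all genes were, and 0 were lower, where 2.59% of all genes were. Every Dp3Yah mouse lay above every control in 1 of the 34, Itgam (0.522% of all genes), and below in 0 (0.391% of all genes).

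A rank test on fold changes (FCROS), the test of the study's methods, rewritten here, averages for each gene the ranks of its fold change over pairs of mice and scales them to f between 0 and 1. It put 6 of the 34 past its upper threshold (2.54% of all genes) and 0 past the lower (2.05% of all genes). These were Ctss, Lyz2, Cd68, Ly86, Cd53 and Cx3cr1. They shared Ctss, Cx3cr1 and Cd53 with the 6 from limma, 3 of 6 in each list. Samsn1 was past the upper threshold as well, at f = 0.992. The 95% interval of the change included 0 in 28 of the 34 genes, and in 33 of the 34 its upper end lay below the 0.58 of a 1.5-fold change. Lyz2 was the exception, with an upper end of 0.59.

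These counts moved with single mice. Without Dp3Yah mouse 2, 24 of the 34 changes were above 0 (51.9% of all genes were in that fit), the median change was 0.04 against 0.003 for all genes, and 6 genes were higher at an unadjusted limma p under 0.05 (3.82% of all genes). Those 6 were Cd68, Ctss, Lyz2, Itgam, Ptprc and Fcgr3, and Cx3cr1, Cd53 and Siglech were not among them. The count at an unadjusted limma p under 0.05 was 3 without Dp3Yah mouse 5 (2.17% of all genes), 3 without control mouse 4 (1.75%) and 9 without control mouse 2 (2.96%). The count of genes with groups that did not overlap was 3 without Dp3Yah mouse 3 (0.712% of all genes) and 3 without control mouse 1 (1.08%). It was 2 without Dp3Yah mouse 4 (0.958% of all genes), control mouse 2 (1.14%) or control mouse 3 (0.702%).

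**Figure D2:**
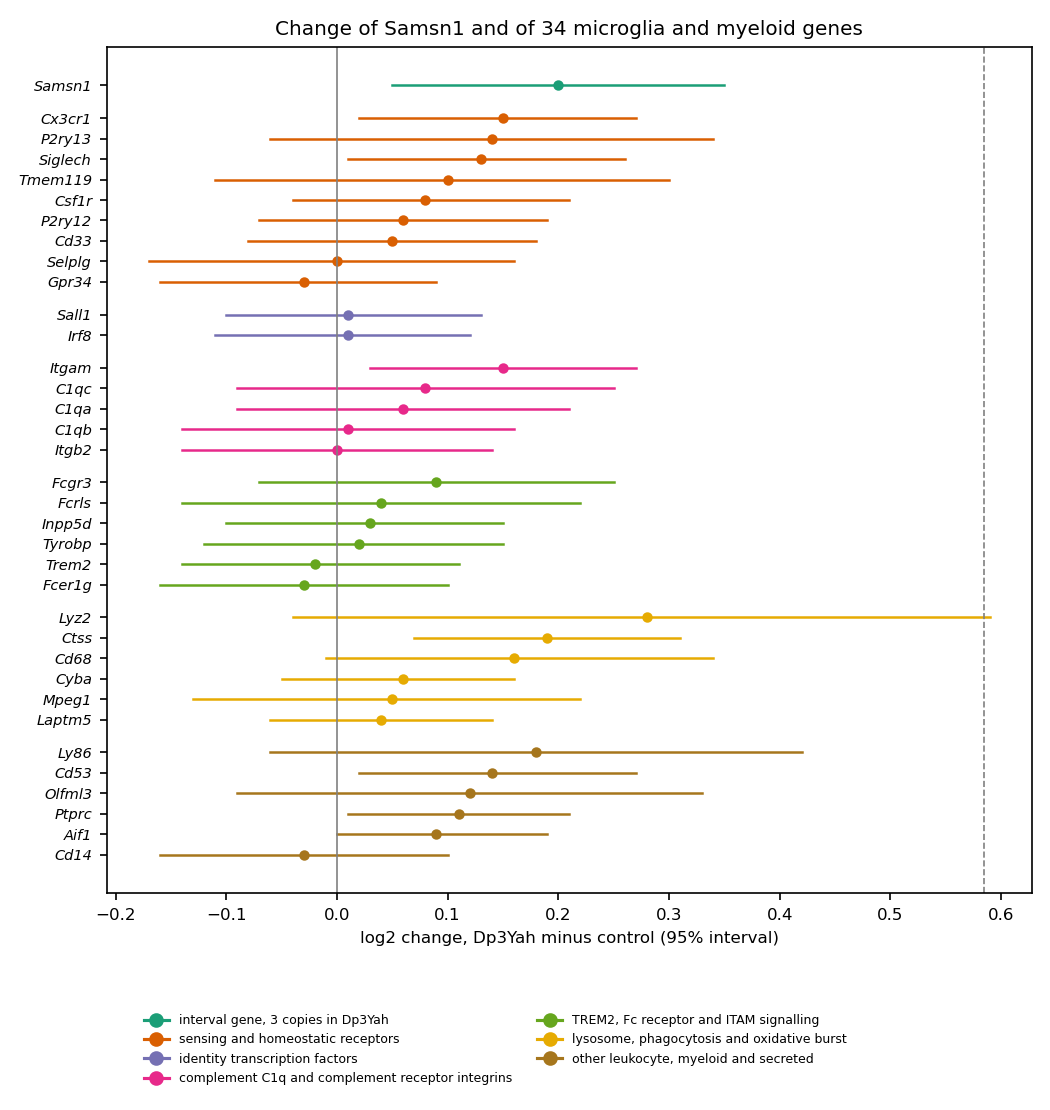
Log2 change, Dp3Yah minus control (horizontal axis), of Samsn1 and the 34 genes with 2 copies, grouped by role; points are changes, bars 95% intervals from limma, the solid line 0 and the dashed line the 0.58 of a 1.5-fold change. Points lean to the right of 0, from -0.03 to 0.28, while 28 of the 34 intervals include 0.

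Among the 9 receptors by which microglia sense their surroundings, 7 had a change above 0 and the median was 0.08. Cx3cr1, the receptor for the neuronal chemokine fractalkine, measured 8.82, 8.90, 8.64, 8.66 and 8.76 in Dp3Yah mice 1 to 5 and 8.49, 8.59, 8.66, 8.62 and 8.70 in control mice 1 to 5. Dp3Yah mice 1, 2 and 5 lay above every control and the other 2 lay among the controls. The change was 0.15 (SE 0.058, 95% interval 0.02 to 0.27, limma adjusted p = 0.922). Siglech, a lectin of the Siglec family found on microglia, measured 7.02, 7.06, 7.01, 7.04 and 7.20 in Dp3Yah mice 1 to 5 and 6.86, 6.98, 7.04, 6.79 and 7.00 in control mice 1 to 5. Control mouse 3 reached as high as Dp3Yah mouse 4, so the groups overlapped. Siglech was higher in Dp3Yah mice on average, by 0.13 (SE 0.057, 95% interval 0.01 to 0.26, limma adjusted p = 0.922).

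Csf1r, the receptor whose signal microglia need to survive, measured 8.92, 9.06, 8.84, 8.80 and 8.79 in Dp3Yah mice 1 to 5 and 8.88, 8.85, 8.81, 8.70 and 8.77 in control mice 1 to 5. The groups overlapped, and only Dp3Yah mice 1 and 2 lay above every control. The means differed by 0.08 (SE 0.057, 95% interval -0.04 to 0.21, limma adjusted p = 0.934), and by 0.04 without Dp3Yah mouse 2. P2ry13, a receptor for ADP, measured 8.91, 8.83, 8.40, 8.49 and 8.72 in Dp3Yah mice 1 to 5 and 8.44, 8.51, 8.47, 8.50 and 8.70 in control mice 1 to 5. Its Dp3Yah mice spread from 8.40 to 8.91 and included the lowest mouse as well as the 3 highest. Between the means lay 0.14 (SE 0.092, 95% interval -0.06 to 0.34, limma adjusted p = 0.928), which ranged from 0.08 without Dp3Yah mouse 1 to 0.21 without Dp3Yah mouse 3. Of the remaining receptors, P2ry12, the ADP receptor that guides microglial processes, lies beside P2ry13 on chromosome 3 and differed by 0.06 (SE 0.06, 0.01 without Dp3Yah mouse 2). The homeostatic marker Tmem119 differed by 0.10 (SE 0.094, 0.02 without Dp3Yah mouse 1 and 0.15 without control mouse 1) and the sialic acid receptor Cd33 by 0.05 (SE 0.06). Selplg, the ligand of P-selectin and the neighbour of Tmem119 on chromosome 5, differed by less than 0.01 (95% interval -0.17 to 0.16), and Gpr34, a lysophospholipid receptor, by -0.03 (SE 0.057).

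The transcription factors that hold microglial identity differed little between the groups. Sall1 differed by 0.01 (95% interval -0.10 to 0.13) and Irf8 by 0.01 (95% interval -0.11 to 0.12). Their levels ran from 7.15 to 7.33 and from 6.73 to 6.84 in Dp3Yah mice, within the control ranges of 7.13 to 7.34 and 6.62 to 6.91.

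In the complement group, the integrin Itgam stood beside smaller differences in C1q. Itgam encodes CD11b, which pairs with CD18 to form complement receptor 3. It measured 6.75, 6.92, 6.75, 6.72 and 6.72 in Dp3Yah mice 1 to 5 and 6.51, 6.70, 6.66, 6.55 and 6.68 in control mice 1 to 5. All 5 Dp3Yah mice lay above all 5 controls, narrowly, with the lowest Dp3Yah mouse at 6.72 and the highest control at 6.70, and the groups overlapped after cyclic loess or median centring of the arrays. The means differed by 0.15 (SE 0.054, 95% interval 0.03 to 0.27, limma adjusted p = 0.922). Its partner Itgb2, which encodes CD18, differed by 0.00 (SE 0.065). C1qa, C1qb and C1qc encode the 3 chains of C1q, the molecule that starts the classical pathway, and lie side by side on chromosome 4 between 136880126 and 136898844 (GRCm38.p6). They differed by 0.06 (SE 0.069), 0.01 (SE 0.069) and 0.08 (SE 0.077). C1qa was highest in Dp3Yah mouse 2, at 8.40, with the other 9 mice between 7.99 and 8.21, and its difference was 0.00 without that mouse.

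The 6 genes of TREM2, Fc receptor and ITAM signalling had a median change of 0.02. Fcgr3, a low-affinity receptor for IgG, differed by 0.09 (SE 0.072, 0.14 without Dp3Yah mouse 2) and Fcrls, an Fc receptor-like scavenger receptor of mouse microglia, by 0.04 (SE 0.084). Trem2, a lipid receptor, differed by -0.02 (SE 0.058), and Tyrobp, its adaptor DAP12, by 0.02 (SE 0.063). The Fc receptor gamma chain Fcer1g differed by -0.03 (SE 0.061). Inpp5d, which encodes the phosphatase SHIP1 that dampens these receptors, differed by 0.03 (SE 0.057). In each of the 6 genes the Dp3Yah and control mice overlapped.

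The lysosomal and phagocytic genes had changes above 0 in 6 of 6, with a median of 0.11 (Mpeg1 was at -0.01 without Dp3Yah mouse 2). Ctss, cathepsin S, a protease that processes antigen in lysosomes, measured 8.36, 8.47, 8.31, 8.34 and 8.44 in Dp3Yah mice 1 to 5 and 8.33, 8.13, 8.07, 8.17 and 8.27 in control mice 1 to 5. Dp3Yah mice 1, 2, 4 and 5 lay above every control, and Dp3Yah mouse 3 was just below control mouse 1. The change, 0.19 (SE 0.055, 95% interval 0.07 to 0.31, limma adjusted p = 0.922), had the lowest unadjusted p of the 35. Cd68, a glycoprotein of late endosomes and lysosomes, measured 7.52, 7.19, 7.51, 7.48 and 7.49 in Dp3Yah mice 1 to 5 and 7.25, 7.55, 7.21, 7.19 and 7.17 in control mice 1 to 5. Each group had 1 mouse away from its other 4, with Dp3Yah mouse 2 among the controls and control mouse 2 above all Dp3Yah mice. The mean was nonetheless higher in Dp3Yah mice, by 0.16 (SE 0.082, 95% interval -0.01 to 0.34, limma adjusted p = 0.922).

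Lyz2, lysozyme, an enzyme that myeloid cells secrete and store, varied most of all 34 genes. It measured 7.51, 7.27, 8.13, 7.45 and 7.83 in Dp3Yah mice 1 to 5 and 7.17, 7.66, 7.21, 7.37 and 7.41 in control mice 1 to 5. Dp3Yah mouse 3 was highest, at 8.13, while Dp3Yah mouse 2 lay within the control range. The difference of the means, 0.28 (SE 0.14, 95% interval -0.04 to 0.59, limma adjusted p = 0.922), ranged from 0.15 without Dp3Yah mouse 3 to 0.37 without Dp3Yah mouse 2. Cyba, a subunit of the NADPH oxidase, differed by 0.06 (SE 0.05), Mpeg1, a pore-forming protein of macrophages, by 0.05 (SE 0.081), and Laptm5, a lysosomal membrane protein, by 0.04 (SE 0.045). The mean of the 6 genes was 8.03 to 8.16 in Dp3Yah and 7.88 to 8.07 in control mice, with control mouse 2 the highest of the controls.

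Of the 6 other leukocyte and myeloid genes, 5 had changes above 0. Ptprc, which encodes the pan-leukocyte phosphatase CD45, measured 5.58, 5.52, 5.55, 5.41 and 5.57 in Dp3Yah mice 1 to 5 and 5.41, 5.45, 5.41, 5.32 and 5.48 in control mice 1 to 5. Dp3Yah mouse 4 lay among the controls and the other 4 above all of them. The group means were apart by 0.11 (SE 0.046, 95% interval 0.01 to 0.21, limma adjusted p = 0.922). Cd53, a leukocyte tetraspanin, measured 6.99, 7.19, 6.89, 7.05 and 7.04 in Dp3Yah mice 1 to 5 and 7.03, 6.83, 6.89, 6.79 and 6.91 in control mice 1 to 5. Dp3Yah mice 2, 4 and 5 lay above every control, though control mouse 1 lay above Dp3Yah mice 1 and 3. Cd53 was higher on average by 0.14 (SE 0.059, 95% interval 0.02 to 0.27, limma adjusted p = 0.922).

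Aif1 encodes IBA1, the protein most used to stain microglia. It measured 6.54, 6.57, 6.50, 6.56 and 6.55 in Dp3Yah mice 1 to 5 and 6.49, 6.51, 6.48, 6.47 and 6.31 in control mice 1 to 5. The Dp3Yah mice lay close together, 4 of them above every control, and control mouse 5 lay far below the rest. The means of Aif1 differed by 0.09 (SE 0.044, 95% interval -0.00 to 0.19, limma adjusted p = 0.922), and by 0.06 without control mouse 5. Ly86 encodes MD-1, the partner of the Toll-like receptor relative RP105. It measured 9.59, 9.97, 9.53, 9.53 and 9.86 in Dp3Yah mice 1 to 5 and 9.88, 9.41, 9.46, 9.34 and 9.48 in control mice 1 to 5. Dp3Yah mouse 2 was highest and control mouse 1 next. For Ly86 the means differed by 0.18 (SE 0.11, 95% interval -0.06 to 0.42, limma adjusted p = 0.922), with 0.11 without Dp3Yah mouse 2 and 0.27 without control mouse 1. Olfml3, a secreted protein of microglia, differed by 0.12 (SE 0.096, 0.04 without Dp3Yah mouse 2) and Cd14, the co-receptor for endotoxin, by -0.03 (SE 0.059).

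The levels of the 34 genes differed by mouse within each group. Their mean level per mouse was 7.63, 7.67, 7.56, 7.53 and 7.56 in Dp3Yah mice 1 to 5 and 7.56, 7.56, 7.48, 7.44 and 7.53 in control mice 1 to 5. Dp3Yah mice 1 and 2 were above all controls, and Dp3Yah mouse 4 was level with control mouse 5. The group means were 7.59 ± 0.059 and 7.51 ± 0.053 (SD, n = 5 each), a difference of 0.07. Of the 34 genes, 17 had their highest value of the 10 mice in Dp3Yah mouse 2 and 7 in Dp3Yah mouse 1. Control mouse 4 held the lowest value of 11 genes and Dp3Yah mouse 5 that of 7, among them the P-selectin ligand Selplg, the C1q chain C1qc and the scavenger receptor Fcrls. Cd68 (7.19), Lyz2 (7.27) and Fcgr3 (7.35) ran the other way, with their lowest Dp3Yah value in Dp3Yah mouse 2.

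**Figure D3:**
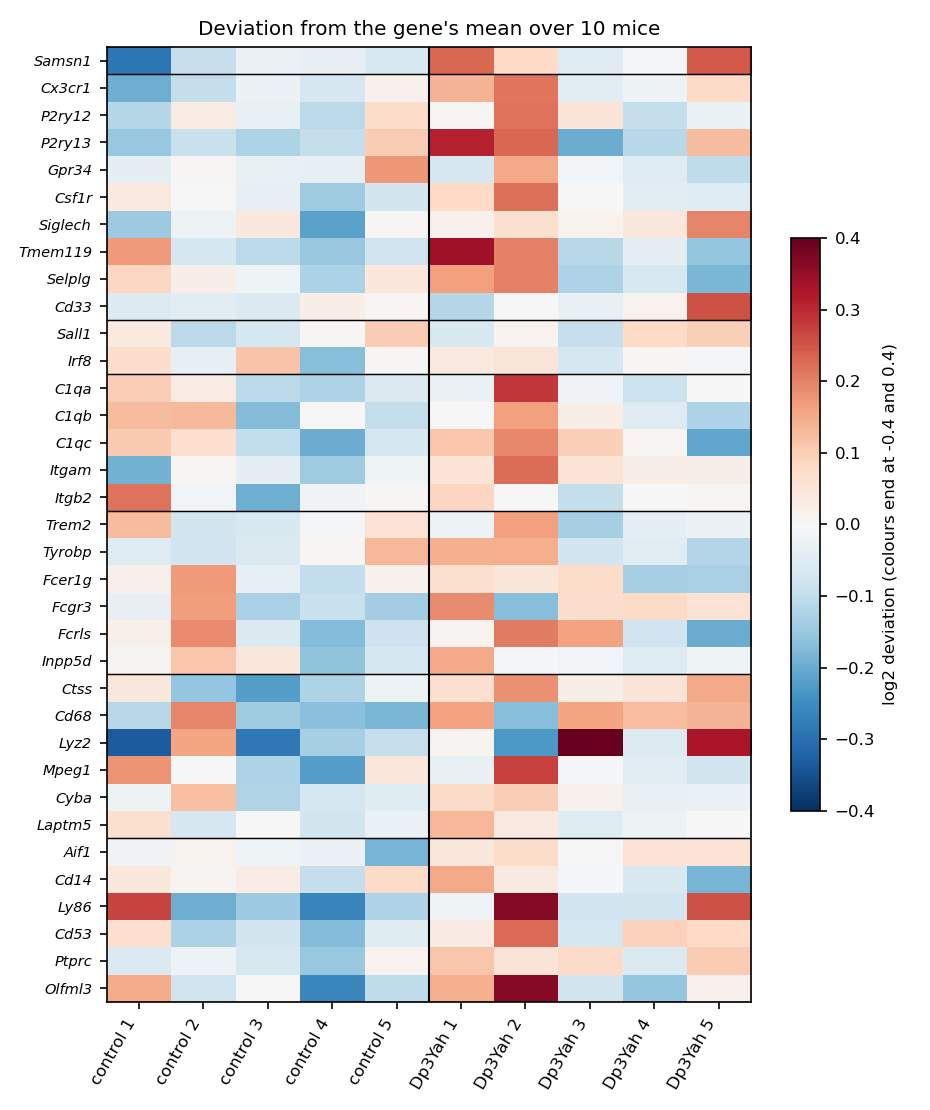
Deviation of each mouse from the gene's mean over the 10 mice (colour, log2; colours end at -0.4 and 0.4, which Lyz2 exceeds in Dp3Yah mouse 3), for Samsn1 and the 34 genes ordered by role, with controls left and Dp3Yah right of the black line. The column of Dp3Yah mouse 2 is red in most rows and that of control mouse 4 blue in most, where 28 and 3 of the 34 genes lay above their mean.

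The pathways around these genes were read from lists of their partners, and no gene in them passed over all genes. Of the ligands, receptors and factors that maintain microglia, 14 were measured, 7 had a change above 0 and the median was -0.01. Cx3cl1, the fractalkine that CX3CR1 binds, differed by -0.09 (SE 0.052, limma adjusted p = 0.922), and Csf1, a ligand of CSF1R, by -0.09 (SE 0.062). A few partners are named outside the rule for named genes, with their values seen, because of what they do. Il34, the other ligand of CSF1R, differed by 0.01 (SE 0.057). Spi1, which encodes PU.1, also differed by 0.01 (SE 0.054).

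Below the ITAM receptors, 14 kinases, phosphatases and adaptors were measured and 9 had a change above 0. Of the 14, 2 were higher at an unadjusted limma p under 0.05 (2.49% of all genes), the exchange factor Vav1 by 0.11 (SE 0.041) and the phosphoinositide kinase subunit Pik3cg by 0.18 (SE 0.082), both below the median level. The other complement genes had changes above 0 in 10 of 13, with a median of 0.05 and 0 at an unadjusted limma p under 0.05. The largest of these in absolute size was the anaphylatoxin receptor C3ar1, at 0.14 (SE 0.1).

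Genes of the activated, disease-associated state of microglia and inflammatory mediators gave medians of 0.01 over 17 and -0.00 over 16 genes, with 10 and 8 changes above 0. No gene of either list had an unadjusted limma p under 0.05. Apoe, which activated microglia raise, differed by -0.01 (SE 0.051), and the cytokine Tnf by 0.04 (SE 0.061), both again named for their roles with the values seen. Cst7, an inhibitor of lysosomal proteases and a marker of the activated state, differed by -0.12 (SE 0.068) and the receptor kinase Axl by 0.09 (SE 0.049), both with an adjusted limma p of 0.922.

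Other cells that share myeloid or leukocyte genes were checked by their own markers. Of 9 markers of border macrophages, which line vessels and meninges, 3 had a change above 0, and their mean level was 4.86 to 5.02 in Dp3Yah and 4.92 to 5.01 in control mice. In that list Mrc1, the mannose receptor, differed by -0.21 (SE 0.066) and Cbr2 by -0.20 (SE 0.055), each with an unadjusted limma p under 0.05 (2.59% of all genes were lower at that p) and an adjusted p of 0.922. Only 1 of the 9, Stab1, lay above the median level of all genes. Of 9 monocyte and neutrophil markers 4 had a change above 0 (mean level 4.57 to 4.63 in Dp3Yah and 4.57 to 4.66 in control mice), and of 10 lymphocyte markers 3 did (4.76 to 4.90 and 4.82 to 4.87). In the lymphocyte list the T cell genes Cd4, at -0.13 (SE 0.051), and Cd3d, at -0.12 (SE 0.055), had an unadjusted limma p under 0.05 and an adjusted p of 0.922. No marker of monocytes, neutrophils or lymphocytes lay above the median level.

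Markers of the other cells of the hippocampus lay to either side of 0. Astrocyte markers had a change above 0 in 9 of 10, with a median of 0.05 and a mean level of 9.68 to 9.76 in Dp3Yah and 9.58 to 9.73 in control mice. Markers of dentate granule neurons had a change above 0 in 2 of 11, with a median of -0.18 and a mean level of 7.36 to 7.68 and 7.51 to 7.80. In that list 4 were lower at an unadjusted limma p under 0.05 (2.59% of all genes), with C1ql2, a synaptic C1q-like protein, at -0.24 (SE 0.052, adjusted p = 0.708). Pyramidal neuron markers had a change above 0 in 7 of 10 (median 0.08, mean level 9.15 to 9.48 and 9.15 to 9.34), endothelial and mural markers in 4 of 13 (median -0.05, mean level 7.43 to 7.59 and 7.45 to 7.62) and oligodendrocyte markers in 5 of 10 (median 0.00, mean level 9.36 to 9.86 and 9.47 to 9.78). Immediate early and stress genes had a change above 0 in 3 of 11, with a median of -0.07 and a mean level of 6.78 to 7.38 and 7.06 to 7.35. At an unadjusted limma p under 0.05, the mural marker Tagln (-0.16, SE 0.04) and the stress gene Hspb1 (-0.48, SE 0.15) were lower (2.59% of all genes). The pyramidal marker Ccn3 was higher (0.31, SE 0.11, 2.49% of all genes). All had an adjusted p of 0.922. Every Dp3Yah mouse lay below every control in Tagln and C1ql2 (0.391% of all genes). The part of these differences in the microglia genes was not tested.

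Choroid plexus RNA varied far more between mice than any of the 34 microglia genes. The mean of its 9 measured markers was 7.08, 7.50, 6.13, 6.18 and 7.67 in Dp3Yah mice 1 to 5 and 7.65, 6.02, 6.24, 6.27 and 7.81 in control mice 1 to 5. High and low mice stood in both groups, and 8 of 9 markers had a change above 0, with a median of 0.07. The 3 Dp3Yah mice with the highest Samsn1, mice 1, 2 and 5, were also the 3 with high choroid plexus markers, whereas control mouse 1, with high markers too, had the lowest Samsn1. With the mean of these markers as a covariate, the Samsn1 change was 0.20 (adjusted p = 0.907), the median of the 34 genes was 0.06 and 28 of them were above 0. The share of all genes above 0 was not taken for that fit.

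**Figure D4:**
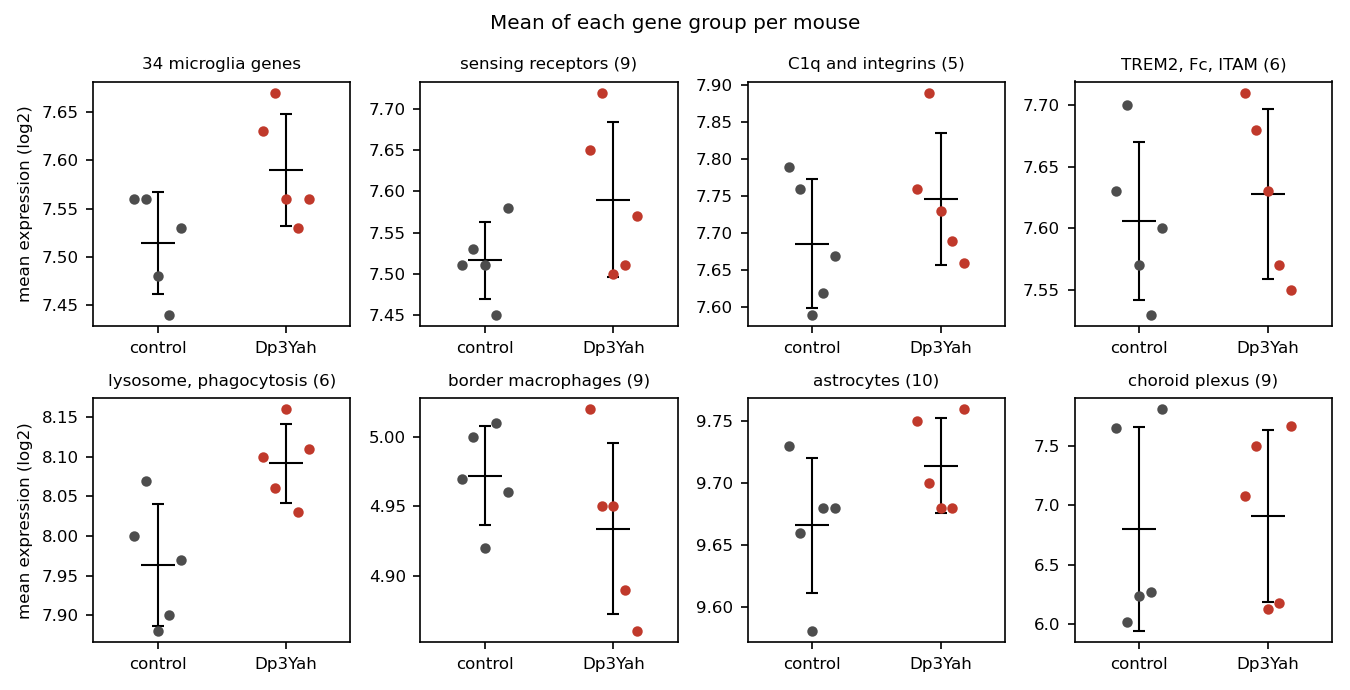
Mean log2 level per mouse (vertical axis, a scale of its own in each panel) of the 34 microglia genes, of 4 of their role groups and of markers of border macrophages, astrocytes and choroid plexus; points are mice, lines the group means and bars the SD, n = 5 per group, with the number of genes in brackets. The groups overlap in all 8 panels, and choroid plexus markers span the widest range, 6.02 to 7.81.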

How the data were processed

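RNA of 5 Dp3Yah and 5 control hippocampi was hybridised to 1 array per mouse. The authors deposited log2 values for 35556 probe sets. Their processing notes to GEO name RMA, limma and the mm10 build, with no version given in the sources used here. The platform annotation paired 21789 probe sets with 1 gene, 1621 with several and 12146 with none. Where several probe sets named 1 gene alone, the one with the highest mean stood for it, which left 19939 genes. Names and positions came from RefSeq (GRCm38.p6).

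A linear model per gene (lmFit and eBayes of limma 3.58.1, run in R 4.3.3, without covariates) compared the groups. Tests were two-sided, p-values were adjusted after Benjamini and Hochberg across the whole gene table, and calls needed an adjusted p under 0.05. The fit was tested on simulated data. FCROS, the rank test of the study, was rewritten from its principle (trim 0.25, thresholds 0.025 and 0.975 on f). Alternatives were a replicate block, other probe set summaries, a filter on dim genes, cyclic loess, median centring, array weights, trended robust variances, leaving out each mouse and, chosen after seeing the data, a choroid plexus covariate. The genes and lists were chosen with earlier results of these data known. Values in every mouse are given for Samsn1, Cx3cr1, Csf1r, Ctss and the 12 genes with 2 copies and the lowest unadjusted p, and up to 3 genes of each other list are named, by lowest p. The number of arrays limits the precision. No batch or scan time was used.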

Additional observations from a re-analysis of the deposited data

Results flagged for a closer look

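In each group of 5 mice, the highest and the lowest value were compared with the rest for the 35 genes and for the mean of the 34 genes with 2 copies. A mouse was taken to stand apart where its gap to the nearest other mouse exceeded 0.71 of the range of its group. This held in 13 of 72 groups, and chance gives about 5%. The genes share mice, so these are not independent.

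Dp3Yah mouse 2 stood apart in 4 genes, above the others in C1qa (8.40), Itgam (6.92) and Mpeg1 (7.34) and below them in Cd68 (7.19). Control mouse 1 stood apart in 3, below the others in Samsn1 (5.61) and above them in Tmem119 (7.81) and Ly86 (9.88). Control mouse 5 was above the others in P2ry13 (8.70) and Gpr34 (4.58) and below them in Aif1 (6.31). Siglech was high in Dp3Yah mouse 5 (7.20), Inpp5d in Dp3Yah mouse 1 (6.62) and Cd68 in control mouse 2 (7.55).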

How the results depend on the processing

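limma called 0 of the genes it tested under each of 19 alternatives. It tested 35 genes, or 30 with the filter on dim genes, which left out Samsn1, Gpr34, Itgb2, Cd14 and Ptprc. The lowest adjusted p of any of them in these fits was 0.671. The thresholds of the rank test are not adjusted over all genes. It put 7 of the 35, Samsn1 included, past the upper one (2.54% of all genes) and 0 past the lower (2.05%). Samsn1 kept its direction in all alternatives that tested it. With cyclic loess and with median centring 0 of the 34 genes had groups that did not overlap (the share of all genes was not taken for these settings). Of the 34 genes, leaving out 1 mouse gave 1 to 3 such genes (0.702% to 1.23% of all genes), 3 to 9 higher at an unadjusted limma p under 0.05 (1.75% to 3.82%), 24 to 31 changes above 0 (44.1% to 51.9%) and a median change of 0.04 to 0.09 (-0.009 to 0.003). The direction held in 21 of the 35 genes. C1qb was -0.003 with cyclic loess, Selplg 0.008 with median centring and Itgb2 -0.009 with the choroid plexus covariate. Without 1 mouse each, the changes ranged from -0.036 to 0.039 for C1qb, -0.068 to 0.016 for Cd14, -0.008 to 0.084 for Cd33, -0.059 to 0.007 for Fcer1g, -0.005 to 0.096 for Fcrls, -0.073 to 0.008 for Gpr34, -0.011 to 0.058 for Inpp5d, -0.035 to 0.036 for Irf8, -0.049 to 0.055 for Itgb2, -0.014 to 0.099 for Mpeg1, -0.012 to 0.040 for Sall1, -0.054 to 0.043 for Selplg, -0.061 to 0.013 for Trem2 and -0.016 to 0.054 for Tyrobp. The cause was not tested. Detection calls were not used here, so for the 5 genes below the median level signal and background cannot be told apart.

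Over all genes, the deviations of mice with the same number correlated at -0.364 to 0.315 over the 5 numbers. The labels name no shared litter or batch. Such correlations cannot show whether the numbers pair the mice, so a block was also fitted. With the replicate number as a block limma called 0 of the 35 genes. Calls among the other genes of the array were not counted with the block. In that fit 5 of the 34 genes were higher at an unadjusted limma p under 0.05, but the share of all genes was not taken. The median change was 0.06 and Samsn1 differed by 0.199 (limma adjusted p = 0.941).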
